A study of Bos taurus with 8 samples.

Results

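The transcripts described here belong to the Wnt pathway: its secreted ligands, their receptors and antagonists, the proteins that carry the signal inside the cell, and the kinase TNIK, which acts with the pathway's transcription factors. A list of 51 genes was matched to the gene names printed in the scanner files, and the brightest probe well above background stood for each gene. By that rule 46 of the 51 had a probe and 38 were measured, out of 12617 genes measured in all. They were studied in primary bovine mammary epithelial cells that carried a short hairpin RNA (shRNA) against EEF1D, the delta subunit of translation elongation factor 1, or none.

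The cells had been isolated from the mammary gland of a Holstein cow in lactation and had reached the fifth passage. There were 3 arrays with the shRNA EEF1D-1357 and 3 with EEF1D-1893, both labelled as EEF1D knockdown, and 2 control arrays labelled as without shRNA. No group is labelled as carrying a hairpin without a target in the cells, so the presence of a hairpin and the loss of EEF1D cannot be told apart. The labels do not say whether replicates were separate cultures, and p-values therefore measure only the spread between these arrays, which may be technical. The RNA is from whole cultures, in which fewer cells of a type and less RNA per cell cannot be told apart.

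In the canonical branch of the pathway, Wnt proteins are lipid-modified by PORCN, carried out of the cell by WLS and bound by a Frizzled receptor together with LRP5 or LRP6. Dishevelled proteins then restrain a destruction complex built on AXIN and APC, beta-catenin (CTNNB1) accumulates, and it switches on genes in the nucleus with the TCF and LEF transcription factors. Other Wnt proteins, WNT5A among them, act largely without beta-catenin, on cell polarity and calcium. In the mammary gland Wnt signals are known for their part in branching and in the upkeep of stem and basal cells, where LGR5 and its relative LGR4 serve as receptors of the R-spondins, which strengthen Wnt signals.

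The clearest difference in the list rested on TNIK, whose 3 probes did not read alike, so the probes are shown. TNIK is a serine/threonine kinase that binds TCF7L2 and phosphorylates it. All 3 lie on chromosome 1 of the cow (build Btau_3.1, plus strand) and are given in their order along the gene. The first, at chr1:98356083-98499856, is placed over far more than its 60 bases of sequence, so its bases lie in separate pieces of the genome. The second lies at chr1:98616998-98617057 and the third at chr1:98672854-98672913. The files do not state exon, intron or UTR for any probe.
TNIK A_73_P105781: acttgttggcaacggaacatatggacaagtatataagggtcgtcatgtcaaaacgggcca
TNIK A_73_P387181: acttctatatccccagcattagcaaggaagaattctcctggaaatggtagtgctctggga
TNIK A_73_P096586: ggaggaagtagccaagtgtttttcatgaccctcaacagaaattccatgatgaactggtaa

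Among the 43653 probes of the array that are not controls, none of another gene shared a run of 15 or more bases with the first or the second TNIK probe, and 1 shared a run of 15 bases with the third. Binding of other transcripts with scattered mismatches was not tested. A pair of Frizzled probes is shown for the same reason, because FZD7 is the member with the next smallest p-value and this probe of it resembles one of FZD1. Capitals mark the 17 bases that both hold in a row. Aligned on that run, the probes overlap by 33 bases, of which 29 are identical. The FZD7 probe lies at chr2:95160565-95160624 on the plus strand and the FZD1 probe at chr4:7606970-7607029 on the minus strand.
FZD7 A_73_P030151: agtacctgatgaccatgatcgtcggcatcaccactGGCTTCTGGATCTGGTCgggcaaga
FZD1 A_73_P258736: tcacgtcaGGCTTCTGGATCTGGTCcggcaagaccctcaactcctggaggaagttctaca

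Between 60.7% and 71.6% of probes were well above background per array, and precision is limited by how few arrays there are. The target EEF1D stood at 53.8% of control over both shRNAs, a log2 difference of -0.89 (SE 0.32) that did not pass the test (limma adjusted p = 0.242), and all 6 shRNA arrays lay below both controls. The file headers place the 3 EEF1D-1357 arrays and control replicate 2 on slide 1, and the 3 EEF1D-1893 arrays and control replicate 1 on slide 2. Against the control on its own slide, EEF1D stood at -0.50 with EEF1D-1357 and -1.29 with EEF1D-1893, and its controls were 0.98 apart. The controls stood further from each other than any 2 arrays of the same shRNA. The SD of their log2 difference over all genes was 0.83, against 0.50 to 0.73 within the shRNA groups, and over the measured members it was 1.49, against 0.73 to 1.39. Slide and control array cannot be told apart as sources of that gap, since each slide holds 1 control. Of the marker lists, 11 of 12 luminal and 11 of 12 basal genes were measured, the missing ones being ELF5 and MYH11. The summed luminal signal, in multiples of each array's 75th percentile, was 935 in control replicate 1 and 488 to 557 elsewhere. That excess was not particular to luminal genes. The median luminal gene stood 0.50 log2 units above its mean over arrays in control replicate 1. The median was 0.53 for endothelial, 0.50 for leukocyte and 0.38 for basal markers there. The luminal marker CDH1, at 3.59, was lowest in that array.

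No member passed an adjusted p under 0.05 in any comparison, as was the case for all 12617 genes (0% called). Values below are log2 processed intensities minus the 75th percentile of their array, and differences between groups are on the same log2 scale. Over both shRNAs, 9 of the 38 members had an unadjusted limma p under 0.05 (23.7%), against 16.9% of all genes. Of these 3 were higher than control (7.89%, against 7.34%) and 6 were lower (15.8%, against 9.6%). Every shRNA array was below both controls in 3 members, TNIK, FZD7 and DVL2 (7.89%, against 9.22% of all genes). The median difference of the members was -0.08, with 13 above 0 and 25 below, and that of all genes was -0.07. With EEF1D-1357 alone 7 members had such a p (18.4%, against 16.2% of all genes), 2 higher (5.26%, against 6.23%) and 5 lower (13.2%, against 9.99%). With EEF1D-1893 alone 9 did (23.7%, against 14.1%), 4 higher (10.5%, against 6.78%) and 5 lower (13.2%, against 7.32%).

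The counts of members whose arrays did not overlap the controls lay around those of all genes. With EEF1D-1357 every array was above both controls in 5 members (13.2%, against 12.2%) and below both in 5 (13.2%, against 18.5%). With EEF1D-1893 it was 4 above (10.5%, against 13.7%) and 9 below (23.7%, against 14.6%). Both shRNA groups were set against the same 2 control arrays, so these counts are not independent of each other.

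**Figure D1:**
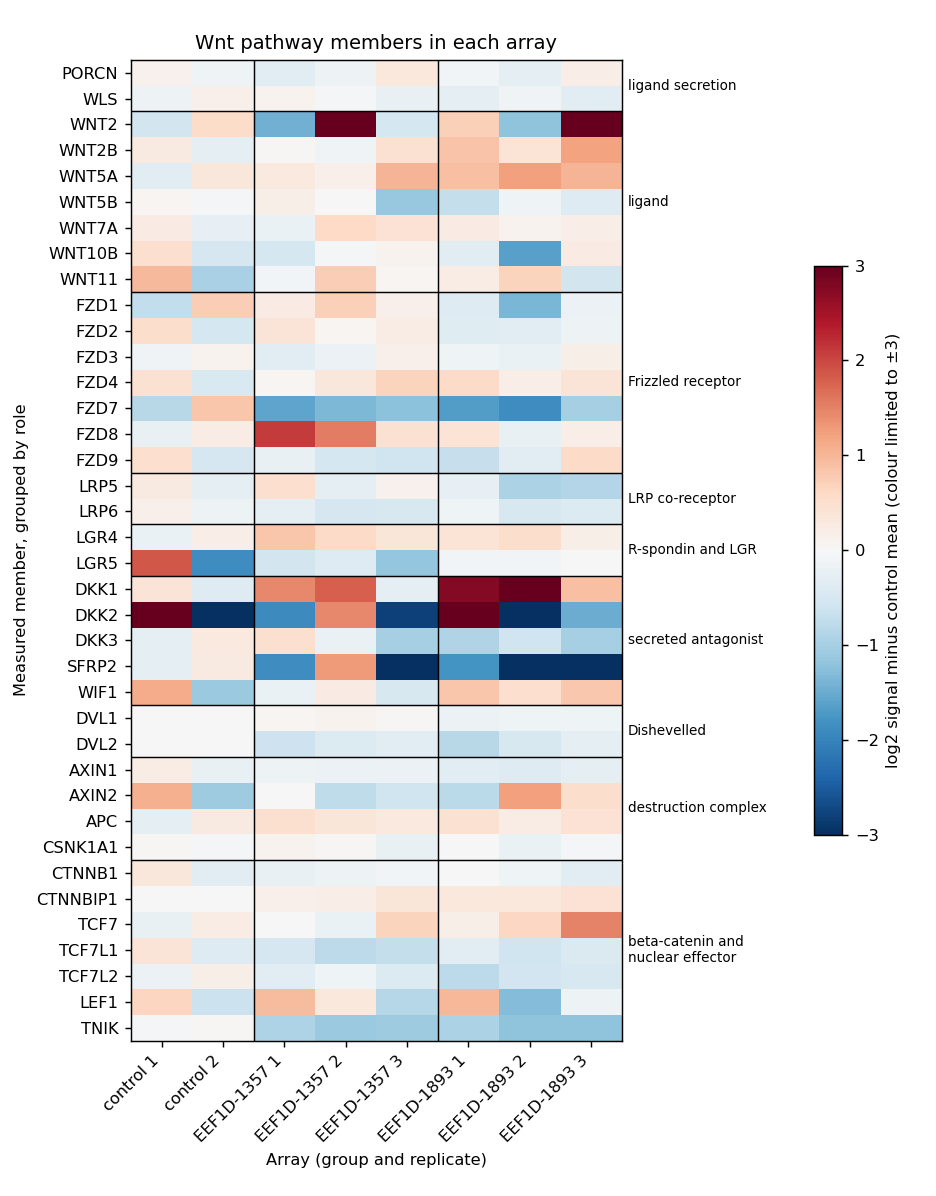
Each row is a measured member, each column an array, and colour gives the scaled log2 signal minus the mean of the 2 controls, limited to 3 log2 units either way. TNIK and FZD7 are below the control mean in all 6 shRNA arrays, whereas LGR5 and DKK2 differ most between the 2 controls.

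Of the listed ligands, 7 of 13 were measured, and both genes of ligand secretion, PORCN and WLS, were measured on every array. WNT3, WNT6, WNT9A and WNT10A had probes that were well above background on at most 1 array, and WNT4 and WNT7B had no probe by the rule. PORCN, the acyltransferase of the Wnt proteins, differed from control by -0.05 (SE 0.21) and WLS, their carrier, by -0.14 (SE 0.15) over both shRNAs. Neither passed the test.

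WNT5A, known chiefly as a ligand of the branch that acts without beta-catenin, was the ligand with the smallest p-value. Its scaled signal was -3.62 and -2.95 in control replicates 1 and 2, -2.98, -3.13 and -2.27 with EEF1D-1357, and -2.39, -2.06 and -2.26 with EEF1D-1893. All 3 EEF1D-1893 arrays were above both controls, and the EEF1D-1357 arrays overlapped them. The difference over both shRNAs was 0.77 (SE 0.28), or 171% of the control level (limma adjusted p = 0.246), and with EEF1D-1893 alone 1.05 (SE 0.31, adjusted p = 0.252). Without control replicate 1 it was 0.43 over both. Against the control on the same slide it was 1.39 with EEF1D-1893 and 0.15 with EEF1D-1357.

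WNT2B, a ligand of the canonical branch, was at -1.69 and -2.23 in the controls, at -1.93, -2.06 and -1.51 with EEF1D-1357 and at -1.10, -1.54 and -0.76 with EEF1D-1893. The EEF1D-1893 arrays were the highest apart from a near tie between their lowest and the highest EEF1D-1357 array. With EEF1D-1893 the difference from control was 0.83 (SE 0.29, limma adjusted p = 0.305), and EEF1D-1357 minus EEF1D-1893 was -0.70 (SE 0.26, adjusted p = 0.747). With slide as a block that difference was -0.16 (SE 0.49), since the shRNAs stood at 0.40 and 0.56 from the control on their own slide. A second probe of the gene gave 0.50 (SE 0.36) over both shRNAs, beside 0.48 (SE 0.26) for the first, which was 0.75 without control replicate 1 and 0.21 without control replicate 2.

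Over both shRNAs no other ligand had an unadjusted limma p under 0.05, and some lay near background. WNT5B, WNT7A and WNT10B differed from control by between -0.37 and 0.23 over both shRNAs, and each had a value on all 8 arrays. With EEF1D-1893 alone WNT5B was at -0.42 (SE 0.39), with every array below both controls. WNT10B was at -0.57 (SE 0.56) with EEF1D-1893, or -1.06 against the control on the same slide, and its controls were 0.99 apart. WNT11 was well above background on 4 arrays. WNT2 was well above background on 2 arrays, EEF1D-1357 replicate 2 at -2.35 and EEF1D-1893 replicate 3 at -2.74, and the other 6 lay between -8.16 and -6.01. Neither control measured WNT2, and it counts as measured only through those 2 shRNA arrays. No size or direction against control is therefore given for it.

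Of the Frizzled receptors 7 of 9 were measured. FZD5 was not well above background on any array and FZD6 had no probe by the rule. FZD7, a receptor expressed in many progenitor cells and known in the mammary gland from basal cells, was at 0.15 in control replicate 2 and -1.53 in control replicate 1 by its brightest probe. The same probe gave -2.27, -2.04 and -1.91 with EEF1D-1357 and -2.37, -2.55 and -1.69 with EEF1D-1893. All 6 shRNA arrays were below both controls, but control replicate 1 lay much closer to them than to control replicate 2. The difference was -1.45 (SE 0.43), or 36.6% of the control level (limma adjusted p = 0.199). Without control replicate 2 it was -0.61 and without control replicate 1 it was -2.29.

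The other FZD7 probes did not repeat that pattern together. A_73_P030151, the probe that resembles FZD1, was at -2.99 and -3.47 in the controls and between -4.52 and -3.97 in the shRNA arrays, a difference of -1.02 (SE 0.22), and here control replicate 1 was the higher control. A_73_P457926 was at -3.14 and -3.38 in the controls and between -3.79 and -2.34 in the shRNA arrays, a difference of 0.00 (SE 0.29). So 2 of the 3 probes put every shRNA array below both controls and the third did not separate them. The FZD1 probe with the shared run gave -0.17 (SE 0.24).

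FZD8 differed mainly with 1 shRNA. Its brightest probe was at -1.04 and -0.60 in the controls, at 1.28, 0.71 and -0.36 with EEF1D-1357 and at -0.42, -1.05 and -0.63 with EEF1D-1893. All 3 EEF1D-1357 arrays were above both controls and above all EEF1D-1893 arrays, the third of them only narrowly. The difference from control was 1.37 (SE 0.46, limma adjusted p = 0.244) with EEF1D-1357 and 0.12 with EEF1D-1893, and EEF1D-1357 minus EEF1D-1893 was 1.24 (SE 0.41, adjusted p = 0.747). The other probes, at 0.63 (SE 0.46) and 0.45 (SE 0.25) over both shRNAs, had the same sign as the brightest, at 0.74 (SE 0.41).

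FZD1 was at -1.94 and -0.45 in the controls, at -0.95, -0.49 and -1.05 with EEF1D-1357 and at -1.58, -2.58 and -1.38 with EEF1D-1893. The controls enclosed all EEF1D-1357 arrays, and every EEF1D-1357 array was above every EEF1D-1893 array. EEF1D-1357 minus EEF1D-1893 was 1.02 (SE 0.46, limma adjusted p = 0.747). On separate slides, however, the shRNAs stood at -0.38 and 0.10 from their own control. A second probe, A_73_P177282, had the same order of arrays at a lower signal and differed from control by 0.07 (SE 0.57), beside -0.14 (SE 0.46) for the brightest. The probe with the run shared with FZD7 had its controls the other way round, at -1.05 and -2.0, and stood at 0.53 and -0.86 from them within slides 1 and 2.

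For FZD2 every EEF1D-1357 array, from -1.93 to -1.61, was above every EEF1D-1893 array, from -2.36 to -2.13, and the controls, at -1.48 and -2.51, enclosed them all. Over both shRNAs, FZD2 differed by -0.03 (SE 0.26) and FZD9, well above background on 3 arrays, by -0.30 (SE 0.38), and the sign of each turned under another scaling. FZD3 had 5 probes, of which A_73_P085876 gave 0.11 (SE 0.14) and the others between -0.17 and -0.06. Its probes overlap in part. FZD4 had a probe at 0.37 (SE 0.27) and another, A_73_P060721, at -0.04 (SE 0.19).

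LRP6 and LRP5 are the co-receptors that pass the signal to AXIN. LRP6 was at -1.39 and -1.68 in the controls and between -2.03 and -1.66 in the shRNA arrays, with 5 of those 6 below both controls. Its difference was -0.38 (SE 0.16, limma adjusted p = 0.287), or -0.23 without control replicate 1, and its other probes gave -0.37 (SE 0.18) and -0.17 (SE 0.13). LRP5 was at -0.47 and -1.02 in the controls, at -0.23, -1.01 and -0.63 with EEF1D-1357 and at -0.99, -1.69 and -1.62 with EEF1D-1893. The EEF1D-1893 arrays were lower than those of EEF1D-1357 except for 1 near tie, and the difference between the shRNAs was 0.81 (SE 0.28, adjusted p = 0.747). A second LRP5 probe overlaps the first by 52 bases and is not independent of it, and it gave a smaller 0.39 (SE 0.30) between the shRNAs. By the brightest probe, EEF1D-1357 stood at 0.40 and EEF1D-1893 at -0.96 from the control on their own slide. The 3 LRP5 probes well above background on 2 or more arrays were all lower than control over both shRNAs.

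LGR4, a receptor of the R-spondins, was at -0.08 and 0.34 in the controls, at 0.97, 0.71 and 0.50 with EEF1D-1357 and at 0.54, 0.65 and 0.30 with EEF1D-1893. All shRNA arrays but EEF1D-1893 replicate 3 were above both controls. The difference was 0.48 (SE 0.19), or 139% of the control level (limma adjusted p = 0.266), and 0.27 without control replicate 1. RSPO3, the listed R-spondin, was well above background on at most 1 array.

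LGR5, the other R-spondin receptor and a marker of stem cells in several epithelia, was set apart by its controls. It was at 1.68 in control replicate 1 and -2.07 in control replicate 2, and the 6 shRNA arrays lay between them, from -1.36 to -0.19. The gap between the controls was 3.74 log2 units, wider than that of 99.8% of all genes. The 3 EEF1D-1893 arrays, at -0.27, -0.28 and -0.19, stood within a narrow band. Against the control on its own slide EEF1D-1893 stood at -1.92, and EEF1D-1357 at 1.17. The difference over both shRNAs, -0.38, is therefore the mean of opposite values.

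**Figure D2:**
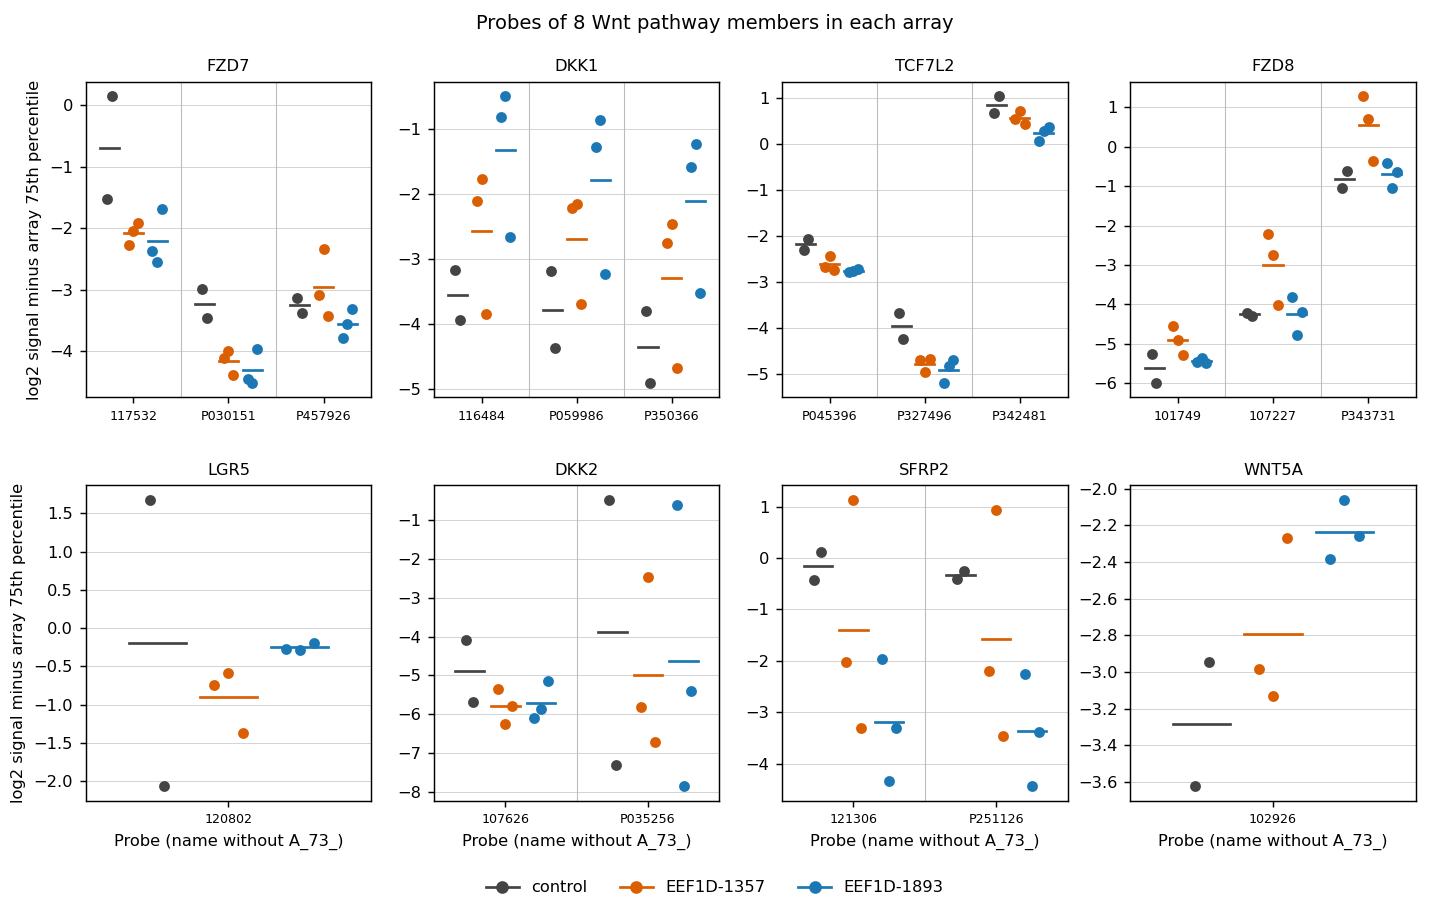
Points are arrays and bars are group means of the scaled log2 signal for each probe above background of 8 members, with control replicate 1 left of control replicate 2. The DKK1 probes all have replicate 3 lowest in each shRNA group, the TCF7L2 probes are all lower with either shRNA on average, and the LGR5 controls lie outside all shRNA arrays, at 1.68 and -2.07.

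The secreted antagonists varied most from array to array. SFRP1 and SFRP4 were well above background on at most 1 array, and 5 of the 7 listed antagonists were measured. DKK1, which blocks the LRP co-receptors, was at -3.17 and -3.94 in the controls, at -2.11, -1.77 and -3.85 with EEF1D-1357 and at -0.81, -0.49 and -2.66 with EEF1D-1893. All EEF1D-1893 arrays and 2 of 3 EEF1D-1357 arrays were above both controls. The difference was 2.23 (SE 0.81), or 471% of control, with EEF1D-1893 (limma adjusted p = 0.313), and 1.61 (SE 0.73) over both shRNAs (adjusted p = 0.315). Its 3 probes gave 1.61, 1.54 and 1.65, with replicate 3 the lowest of each shRNA group on every probe. On A_73_P059986 that array of EEF1D-1893, at -3.23, was just below control replicate 1, at -3.19.

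SFRP2, a secreted protein that binds Wnt ligands and is made by fibroblasts in many tissues, was at -0.43 and 0.12 in the controls. With EEF1D-1357 it was at -2.03, 1.13 and -3.31, and with EEF1D-1893 at -1.96, -4.34 and -3.30. In 5 of the 6 shRNA arrays it was below both controls, and in EEF1D-1357 replicate 2 it was the highest of all. The difference was -3.04 (SE 1.26, limma adjusted p = 0.347) with EEF1D-1893 and -2.15 (SE 1.13, adjusted p = 0.370) over both shRNAs. A second probe gave -2.14 (SE 1.09) with the same array on top. Of 12 fibroblast markers 10 were measured, PDGFRB and TCF21 not. Their summed signal, in multiples of the 75th percentile, was 2.35 to 2.98 in the controls, 1.39 to 1.74 with EEF1D-1357 and 1.69 to 4.16 with EEF1D-1893. Over both shRNAs 9 of these markers were below control and 1 above, with a median of -0.37, against -0.07 for all genes. At an unadjusted limma p under 0.05, 3 were lower with EEF1D-1357 (30%, against 9.99% of all genes). With EEF1D-1893 0 were lower (against 7.32%), and with neither shRNA was any higher. The part of fibroblasts in the SFRP2 values was not tested.

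DKK2, an antagonist related to DKK1, switched between arrays without regard to group. Its brighter probe was at -0.48 in control replicate 1, -0.60 in EEF1D-1893 replicate 1 and -2.46 in EEF1D-1357 replicate 2, and at -5.39 or lower in the other 5 arrays. The controls differed by 6.82 log2 units. A second DKK2 probe, well above background on 3 arrays, lay between -6.24 and -4.09 on all 8 arrays and was not raised in EEF1D-1893 replicate 1 (-6.11) or EEF1D-1357 replicate 2 (-6.24). By the brighter probe the difference over both shRNAs was -0.91 with an SE of 2.38. DKK3, which despite its name is not an established blocker of the LRP co-receptors, differed by -0.54 (SE 0.37). WIF1, which binds Wnt proteins directly, was well above background on 2 arrays.

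Of the Dishevelled genes DVL1 and DVL2 were measured, and DVL3 had no probe by the rule. DVL2 was at -0.19 and -0.23 in the controls, at -0.83, -0.62 and -0.55 with EEF1D-1357 and at -1.03, -0.69 and -0.47 with EEF1D-1893. All shRNA arrays were below both controls, and the differences within slides 1 and 2 were -0.44 and -0.55. Over both shRNAs it was -0.49 (SE 0.17), or 71.0% of the control level (limma adjusted p = 0.237). A second probe of the gene did not separate the groups and gave -0.04 (SE 0.27). DVL1 was among the steadiest members and varied by 0.29 log2 units over the 8 arrays.

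In the destruction complex, AXIN1, AXIN2, APC and CSNK1A1 were measured and none had an unadjusted limma p under 0.05 in any comparison. Of all genes 6.41% to 16.9% did, depending on the comparison, and these genes are too few to read the absence as a result. AXIN2 is itself switched on by beta-catenin and serves as a readout of the canonical branch. It was well above background on 2 arrays, with values of -5.56 and -7.69 in the controls, -6.63, -7.40 and -7.23 with EEF1D-1357 and -7.44, -5.39 and -6.10 with EEF1D-1893, so it gives no readout here. The scaffold AXIN1 differed by -0.25 (SE 0.14) and the kinase CSNK1A1 by -0.05 (SE 0.14). APC had a brightest probe at 0.37 (SE 0.17), or 0.11 without control replicate 1, while A_73_P078806 gave -0.01 (SE 0.12).

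CTNNB1, beta-catenin itself, was measured by 4 probes that did not share a direction. The brightest gave -0.15 (SE 0.20) over both shRNAs, A_73_101586 gave 0.39 (SE 0.16), A_73_P253861 gave 0.34 (SE 0.13) and A_73_P256336 gave -0.48 (SE 0.25). By the brightest probe the controls, at 4.60 and 3.92, enclosed all 6 shRNA arrays. CTNNBIP1, which binds beta-catenin and keeps it from the TCF factors, was at 1.11 and 1.12 in the controls and between 1.26 and 1.55 in the shRNA arrays. It was the only member with every shRNA array above both controls (2.63% of members, against 7.7% of all genes). Its difference was 0.30 (SE 0.12), or 123% of the control level (limma adjusted p = 0.271), and a second probe gave 0.40 (SE 0.14).

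TCF7L2, the partner of beta-catenin to which TNIK binds, was lower with both shRNAs on each of its 3 probes. The brightest was at 0.67 and 1.04 in the controls, at 0.54, 0.73 and 0.44 with EEF1D-1357 and at 0.07, 0.29 and 0.38 with EEF1D-1893. All arrays but EEF1D-1357 replicate 2 were below both controls. The difference was -0.45 (SE 0.16), or 73.3% of the control level (limma adjusted p = 0.244), and -0.61 (SE 0.18) with EEF1D-1893 alone. Without control replicate 2 it was -0.26 over both. The other probes gave -0.50 (SE 0.14) and -0.88 (SE 0.21), and on both of them all 6 shRNA arrays were below both controls.

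TCF7L1, which mostly represses Wnt target genes, was at -0.44 and -1.24 in the controls, at -1.33, -1.63 and -1.55 with EEF1D-1357 and at -1.18, -1.45 and -1.28 with EEF1D-1893. The shRNA arrays lay near control replicate 2 and away from control replicate 1. The difference was -0.56 (SE 0.22, limma adjusted p = 0.266), and it was -0.17 without control replicate 1. A probe well above background on 2 arrays, A_73_P361236, gave 0.04 (SE 0.62).

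TCF7 and LEF1 are transcription factors of the same family that are themselves often raised by Wnt signals. TCF7 was at -3.44 and -3.01 in the controls, at -3.25, -3.42 and -2.55 with EEF1D-1357 and at -3.04, -2.60 and -1.73 with EEF1D-1893. Its arrays overlapped, and the difference was 0.46 (SE 0.38). LEF1 was at -2.13 and -3.43 in the controls, at -1.83, -2.46 and -3.63 with EEF1D-1357 and at -1.79, -4.08 and -2.95 with EEF1D-1893. Each group spanned more than 1 log2 unit, and the difference was -0.01 (SE 0.70), with a sign that turned under quantile normalization, with or without normexp, median scaling and the deposited table. BCL9, a coactivator of beta-catenin, had no probe by the rule.

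TNIK had the smallest p-value of the members in each comparison with control, rank 11 of all 12617 genes over both shRNAs. Like all members, it was listed with earlier results of these data known, so this rank adds no support. Its brightest probe, A_73_P105781, was at -2.33 and -2.23 in the controls, at -3.21, -3.40 and -3.35 with EEF1D-1357 and at -3.24, -3.49 and -3.48 with EEF1D-1893. The controls lay within 0.09 of each other, and all shRNA arrays were clearly below them. The difference was -1.08 (SE 0.13), or 47.3% of control, with a limma adjusted p of 0.0737. With EEF1D-1357 it was -1.04 (SE 0.15, adjusted p = 0.130) and with EEF1D-1893 it was -1.12 (SE 0.15, adjusted p = 0.165). Against the control of the same slide it was -1.09 on slide 1 and -1.08 on slide 2.

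The other TNIK probes differed from this one. A_73_P387181 was dimmer, well above background on both controls and on 1 array of each shRNA. It was at -5.20 and -4.53 in the controls, at -5.68, -5.94 and -5.88 with EEF1D-1357 and at -7.18, -6.37 and -5.81 with EEF1D-1893. All shRNA arrays were again below both controls, with a fitted difference of -1.28 (SE 0.35), which rests on values near background in 4 of the 6 shRNA arrays. A_73_P096586, the probe furthest along the gene, was at -3.27 and -2.55 in the controls and between -3.28 and -3.13 in the shRNA arrays. There the difference was -0.30 (SE 0.19), and control replicate 1 stood among the shRNA arrays. Of the probes well above background on all 8 arrays, the first thus separated the groups and the third did not. Which transcripts of TNIK hold each probe is not given in the sources used here.

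**Figure D3:**
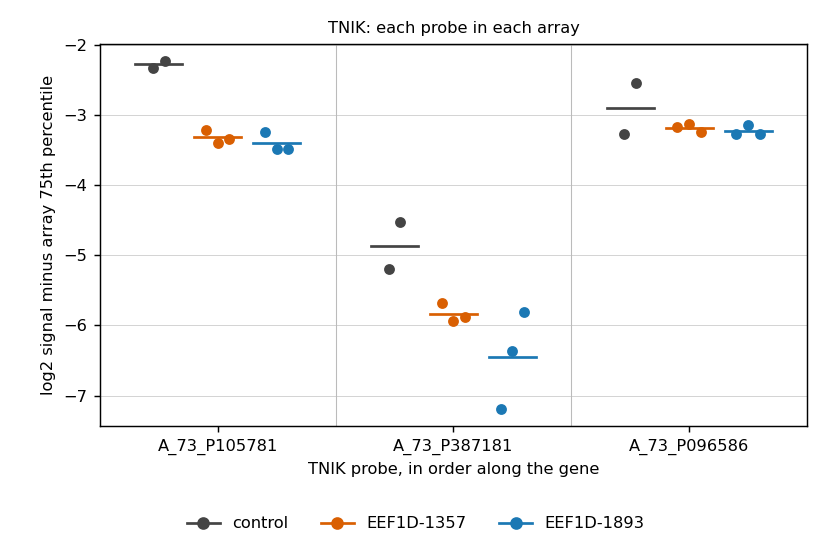
Points are arrays and bars are group means of the scaled log2 signal of the 3 TNIK probes, from left to right along the gene. All 6 shRNA arrays are below both controls on the first 2 probes, the second of which is near background in 4 of those 6, and control replicate 1 (-3.27) lies among them on the third.

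With slide as a block, which sets each shRNA against the control on its own slide, 2 members passed over both shRNAs, TNIK (limma adjusted p = 0.0291) and FZD7 (adjusted p = 0.0412). That is 5.26% of the members, against 5.7% of all genes. The spread in this model comes from the shRNA arrays alone, so the large gap between the controls does not enter it. With EEF1D-1893 6 members passed (15.8%, against 14.7% of all genes): TNIK, APC, AXIN1, FZD2, LGR5 and TCF7L1. With EEF1D-1357 none passed (against 0.222% of all genes), nor did any between the shRNAs (against 0.0476%). Without control replicate 2, and with the lone control assumed to vary like the other groups, 5 members passed over both shRNAs (13.2%, against 23.2% of all genes): TNIK, LGR5, TCF7L1, APC and AXIN1. Without control replicate 1 none did (against 0.206%), so whether any member passes depends on which control is kept.

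**Figure D4:**
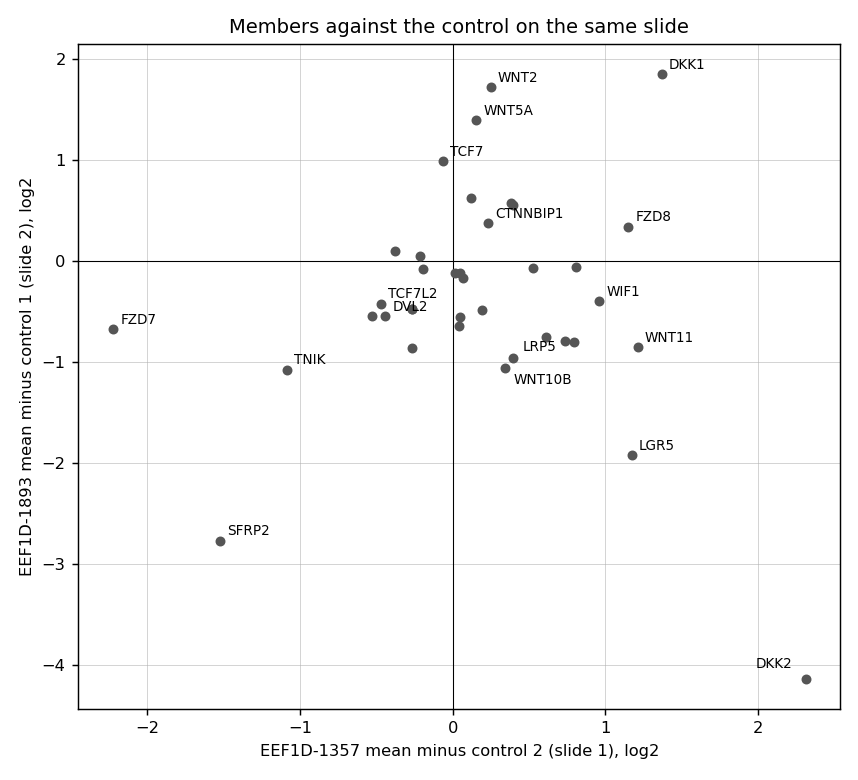
Each point is a measured member, placed by the mean of EEF1D-1357 minus control replicate 2 on slide 1 (horizontal) and of EEF1D-1893 minus control replicate 1 on slide 2 (vertical), both on the log2 scale. TNIK lies at -1.09 and -1.08, FZD7, SFRP2 and TNIK are below 0 on both axes, DKK1 is above 0 on both, and LGR5 and DKK2 have opposite signs.

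The shRNAs differed from each other at an unadjusted limma p under 0.05 in 3 members (7.89%, against 6.41% of all genes): FZD8 and LRP5 were higher with EEF1D-1357 (5.26%, against 2.58%) and WNT2B was lower (2.63%, against 3.84%). All EEF1D-1357 arrays were above all EEF1D-1893 arrays in 6 members (15.8%, against 6.71%) and below them in 2 (5.26%, against 14.9%). None passed after adjustment, and the smallest adjusted p was 0.747. In this comparison the shRNA and the slide cannot be told apart except through the single control on each slide.

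**Figure D5:**
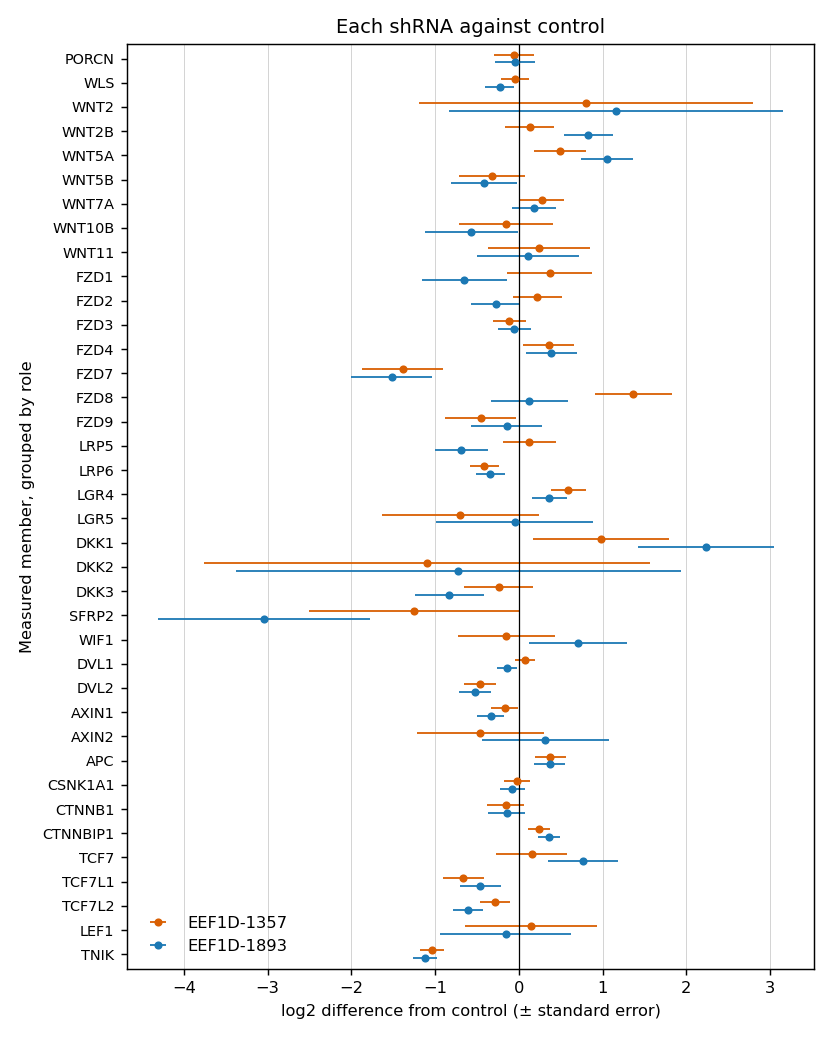
Log2 difference of each shRNA from the 2 controls for the measured members, by role, with bars of 1 standard error from the limma fit. TNIK lies at -1.04 and -1.12 with short bars, and DKK2 has the longest bars.

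Other genes of the pathway, from lists of its remaining members, were measured on the same arrays, and none passed adjustment. Of 56 further core genes 42 were measured, with a median difference of -0.13 over both shRNAs, 2 higher and 8 lower at an unadjusted limma p under 0.05. These are 4.76% and 19% of them, against 7.34% and 9.6% of all genes. The smallest p-values belonged to CSNK1G3, a casein kinase that acts on LRP6, at -1.46 (SE 0.24), TLE3, a corepressor of the TCF factors, at -1.0 (SE 0.20), TBL1XR1, a cofactor of beta-catenin, at -0.75 (SE 0.16), and PYGO1, a coactivator, at 0.55 (SE 0.12). For each of these 4, the shRNA arrays did not overlap the controls, as in 7.7% of all genes above and 9.22% below. The 4 were picked by their p-values in this same comparison, so this adds no support. Their adjusted p-values lay between 0.125 and 0.153.

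Of 27 genes of the planar polarity and calcium branches 22 were measured, 1 higher (4.55%, against 7.34% of all genes) and 2 lower (9.09%, against 9.6%), with a median of 0.03. The smallest p-values belonged to PPP3CA, the catalytic subunit of calcineurin, at 0.62 (SE 0.16), CAMK2G, a calcium-dependent kinase, at -0.44 (SE 0.15), PRICKLE1, a polarity protein, at -0.46 (SE 0.17), and CDC42, a small GTPase, at 0.32 (SE 0.15). Of 28 known targets of beta-catenin 22 were measured, 4 higher (18.2%, against 7.34% of all genes) and 0 lower (against 9.6%), with a median of -0.01. The 4 were PLAUR, the urokinase receptor, at 0.89 (SE 0.26), TCF4, an E-box binding factor distinct from TCF7L2, at 0.70 (SE 0.25), MYC, a growth regulator, at 0.51 (SE 0.19) and SNAI2, a repressor of epithelial genes, at 0.75 (SE 0.30), with adjusted p-values from 0.196 to 0.280. Their sizes differed between the controls: within slides 1 and 2, SNAI2 stood at 0.15 and 1.34, MYC at 0.19 and 0.82, TCF4 at 0.42 and 0.99, and PLAUR at 1.48 and 0.30. All of these targets also answer to other signals.

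Of the kinases closest to TNIK, MINK1 was measured and differed by -0.31 (SE 0.15, limma adjusted p = 0.349), by -0.11 with EEF1D-1357 and by -0.50 with EEF1D-1893 (adjusted p = 0.742 and 0.292). EEF1D-1357 minus EEF1D-1893 was 0.39 (SE 0.15, adjusted p = 0.747) for MINK1. The 6 cadherins and catenins of cell adhesion, which share beta-catenin with the pathway, were all measured, with a median of -0.01. Of them 0 had an unadjusted limma p under 0.05, against 16.9% of all genes, and 6 genes are too few to read that as a result. The smallest p-values among them belonged to CTNNA1 at 0.26 (SE 0.15), CDH1 at 0.17 (SE 0.15), CDH2 at -1.07 (SE 1.05) and CDH3 at -0.11 (SE 0.15). Basal and myoepithelial markers, of which Wnt-responsive cells of the gland are part, had a median of -0.27, against -0.07 for all genes. Their summed signal was 355 to 376 in the controls, 251 to 309 with EEF1D-1357 and 261 to 414 with EEF1D-1893. At an unadjusted limma p under 0.05, 1 was higher (9.09%, against 7.34% of all genes) and 2 were lower (18.2%, against 9.6%). Their smallest limma adjusted p was 0.0558, with EEF1D-1357. Every shRNA array was below both controls in MYLK and OXTR (as in 9.22% of all genes) and above both in ITGA6 (as in 7.7%). The part of basal cells in the values of FZD7, TCF7L1 and LGR5 was not tested.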

How the data were processed

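8 RNA samples were hybridised to one-colour Agilent arrays. Per the file headers, the deposited values are the Cy3 intensity of each spot as read by Feature Extraction 10.7.3.1, background-subtracted and not normalized between arrays, although version 9.1 stands in the submitters' processing notes. Per the file headers, further deposited columns flag outlier spots and spots well above background. The deposited series table, used as an alternative, holds log2 values with a median of 7.55 in each array. Its scale and centring were found by setting it against the same array's scanner output (r from 0.998 to 1.000 over probes), and its direction is that of the signal.

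Outlier spots were left out, which removed 214 of 43653 probes, and spots of a probe were averaged. From the log2 intensity the array's 75th percentile was subtracted. A probe had to be well above background on 2 or more arrays (30722 were), and the brightest probe stood for each of 12617 genes. Members were found by the gene name in the files (99 probes, of which 1 was an outlier and 72 passed), and other genes were named with the RefSeq table of ARS-UCD2.0, used for names alone. Positions are those printed in the files for Btau_3.1, and probe sequences are copied from the files. The fit, in limma 3.58.1 (R 4.3.3), gave each of the groups its own mean over the 8 arrays (5 residual degrees of freedom, with 2.13 added by limma), with Benjamini-Hochberg adjustment over all genes and two-sided tests. The members and lists were chosen with earlier results of these data known. All members are accounted for. Values in every array are given for the 6 members with the smallest p-values in each comparison, TNIK, AXIN2, LEF1 and TCF7, and the 4 genes with the smallest p-values are named from each other pathway list with as many measured. Marker lists are given by counts and summed signal. CTNNBIP1, LRP6, LGR5, SFRP2 and DKK2 were singled out after their values were seen. The analysis was tested on simulated data.

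Alternatives were other scalings, background correction by normexp (offset 50) with quantile normalization, other filters on dim probes, the mean of a gene's probes, the deposited table, a trended robust prior, the groups of a comparison alone, a block for slide or for replicate number, each slide alone, and each array left out. Each other probe of a named gene was an alternative added after seeing the data, and its values come from the same fit run over all 30722 probes that passed. Replicate numbers do not pair the arrays.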

Additional observations from a re-analysis of the deposited data

Results flagged for a closer look

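In 3 of the 38 measured members, every EEF1D-1357 array lay above the control mean and every EEF1D-1893 array below it. The share of all genes that do so was not computed, so this count does not set the members apart. The 3 members were the receptors FZD1 and FZD2 and the Dishevelled gene DVL1. For FZD1, EEF1D-1357 minus EEF1D-1893 was 1.02 (SE 0.46), for FZD2 it was 0.50 (SE 0.26) and for DVL1 it was 0.21 (SE 0.11). The limma test of that difference passed in none of them, with an adjusted p of 0.747 in each. The controls of FZD1 stood 0.75 either side of their mean and those of FZD2 0.52 either side, further out than most shRNA arrays, whereas those of DVL1 differed by 0.05.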

How the results depend on the processing

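Each left-out array, scaling, filter and block was applied alone, and of the values that sum up the members 194 stayed close to the reported ones, 32 moved and 1 reversed. The cause was not tested except where stated. Slide as a block raised the members passing from 0 to 2 over both shRNAs (5.26%, against 5.7% of all genes). With EEF1D-1893 it raised them from 0 to 6 (15.8%, against 14.7%). Between the shRNAs it raised the members at an unadjusted p under 0.05 from 3 to 8. It moved the median member to 0.14 with EEF1D-1357, to -0.45 with EEF1D-1893 and to 0.21 between the shRNAs. Within slides 1 and 2 the medians were the same 0.14 and -0.45 by construction. Medians of all genes in these settings are not given here, so these shifts cannot be called particular to the members. At an unadjusted p under 0.05, EEF1D-1357 had 4 members under normexp with quantile normalization and 4 from the compared groups alone, where fewer arrays set the spread. Between the shRNAs there were 5 under median scaling, 5 with the mean of probes, 9 from the compared groups alone and 5 with replicate number as a block. Shares of all genes at that unadjusted p were not computed for these settings, so such counts do not set the members apart. The replicate numbers do not pair the arrays: same-numbered arrays deviated together with r from -0.11 to 0.14, and that block left 0 members passing in every comparison.

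With single arrays left out, members passed only without control replicate 2, a fit that leaves a lone control to set them against. Members at an unadjusted p under 0.05 ranged from 4 (without EEF1D-1893 replicate 2) to 11 over both, 3 (without EEF1D-1357 replicate 1 or 2) to 10 with EEF1D-1357, 5 (without EEF1D-1893 replicate 2) to 12 with EEF1D-1893, and 0 (without EEF1D-1357 replicate 1) to 9 (without either control) between the shRNAs. The median member ranged from -0.34 to 0.16 over both, -0.17 to 0.14 with EEF1D-1357 and -0.45 to 0.090 with EEF1D-1893, lowest without control replicate 2 and highest without control replicate 1. AXIN2 ranged from -1.14 to 1.00 and LEF1 from -0.65 to 0.64 in the same way. Medians of all genes without each array are not given here, so the ranges cannot be called particular to the members.

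Over both shRNAs the sign of AXIN2 turned under quantile normalization (0.0013), median scaling (0.016) and normexp with quantile normalization (0.033). LEF1 turned under quantile normalization (0.054), median scaling (0.081), normexp with quantile normalization (0.086), the deposited table (0.043) and replicate number as a block (0.24). Probe A_73_P457926 of FZD7 (0.0044) and A_73_P361236 of TCF7L1 (0.037) also turned the sign. Between the shRNAs, slide as a block turned FZD1 to -0.48 and TCF7L2 to -0.045. Its other probes aside, TNIK stayed between -1.13 and -0.81 in the 18 tested settings over both shRNAs (limma adjusted p from 0.016 to 0.22), passing with slide as a block and without control replicate 2. For both shRNAs together a fit of the compared groups alone is the reported one, since they take in all arrays. Signal near background limits AXIN2, WNT2, WNT11, FZD9, DKK2 and WIF1.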
